A study of Mus musculus with 12 samples.

Results

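Expression of 10 genes of the Wnt pathway was followed in differentiating mouse embryoid bodies, aggregates that embryonic stem cells form when they are left to differentiate. The 10 genes are the R-spondin axis genes Rspo3 and Lgr5, the secreted or surface inhibitors Dkk1, Frzb and Apcdd1, the intracellular feedback inhibitors Axin2 and Nkd1, and the transcription factors Tcf7, Lef1 and Sp5. They were taken by Ensembl ID from a table of 18269 genes, and all 10 had a row. Each of the 10 had a mean of at least 10 normalised reads in at least 2 groups and so entered the tests, which covered 17000 genes. Axin2 and Tcf7 lie on chromosome 11.

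The 4 groups were null embryoid bodies (line 4C2, genotype Gcn5-/-) and floxed embryoid bodies (line 4_1, genotype Gcn5fx/fx), each at day 3 and at day 5 of differentiation, with 3 samples in a group and a C57BL/6 background throughout. Gcn5, the product of Kat2a, acetylates histones as part of co-activator complexes such as SAGA, and the comparison asks how its loss bears on early differentiation. Because 1 line stands for each genotype, effects of line and of genotype cannot be told apart. The p-values rest on the spread among samples of a single line, and nothing says that these came from separate cultures, so that spread may be technical. In bulk RNA, fewer cells that express a gene and less RNA per cell cannot be told apart.

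Wnt ligands bind Frizzled receptors and LRP co-receptors at the cell surface, which stops the destruction complex built on Axin from degrading beta-catenin. Beta-catenin then enters the nucleus and works through DNA-binding partners of the TCF and LEF family. R-spondins act with Lgr receptors to keep Frizzled on the surface by holding back the ubiquitin ligases Znrf3 and Rnf43, and many targets of the pathway, among them Axin2, Nkd1, Dkk1, Sp5 and Lgr5, feed back on it. In the embryo the pathway is known for its part in forming the primitive streak and in patterning the body axis from front to back.

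Recovered reads numbered 18022071 to 26803369 per null library and 23090915 to 29446068 per floxed library. Kat2a averaged 701 ± 122 normalised reads in null samples and 2228 ± 151 in floxed samples at day 3, and 817 ± 67.5 in null samples and 2207 ± 165 in floxed samples at day 5 (SD, n = 3 each). The log2 change was -1.68 ± 0.11 at day 3 and -1.43 ± 0.11 at day 5 (SE, adjusted p = 1.01e-05 and 1.6e-05, limma), so the transcript was lower, and not absent, in every library labelled null. Which exons the deletion removes is not given in the sources used here. On the third principal component (5.89% of variance) the libraries numbered 3 scored below the libraries numbered 1 and 2 of their own group in each of the 4 groups. Of 1332 chromosome 11 genes tested, 30.3% were higher in null samples at day 3 and 41.3% at day 5, against 1.86% of genes elsewhere at day 3 and 10.6% at day 5. Antisense genes share exonic bases with Axin2 (209 bases, Gm11670), Lef1 (1208 bases, Gm43352) and Rspo3 (404 bases, Gm48159), and whether counting used the strand is not given in the sources used here, so reads of these pairs may not have been told apart.

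At day 5 null embryoid bodies had less Rspo3, Lgr5, Dkk1, Apcdd1 and Nkd1 and more Tcf7 than floxed ones, and 4 of the 10 genes were not called. The levels of the 5 lower genes in null samples ranged from 0.180 times the floxed mean for Rspo3 to 0.624 times for Nkd1. At day 3 Tcf7 was already higher in null samples and Rspo3 lower, while the other 8 genes were not called. Thus 1 gene was called higher and 1 lower at day 3, when 4.09% of all genes tested were called higher and 2.03% lower. At day 5, 1 was called higher and 5 lower, when 13.0% of all genes were called higher and 13.5% lower. A call means an adjusted p under 0.05 in limma's moderated test on log2(value + 1), with Benjamini-Hochberg adjustment over all 17000 genes. Fold changes on that scale understate the change of genes with few reads. Where groups are said to overlap or not, the share of all genes that did so was not counted. Such statements only describe the samples. The median log2 change of the 10 genes was -0.18 at day 3 and -0.55 at day 5, beside -0.0036 and -0.02 over all genes.

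**Figure D1:**
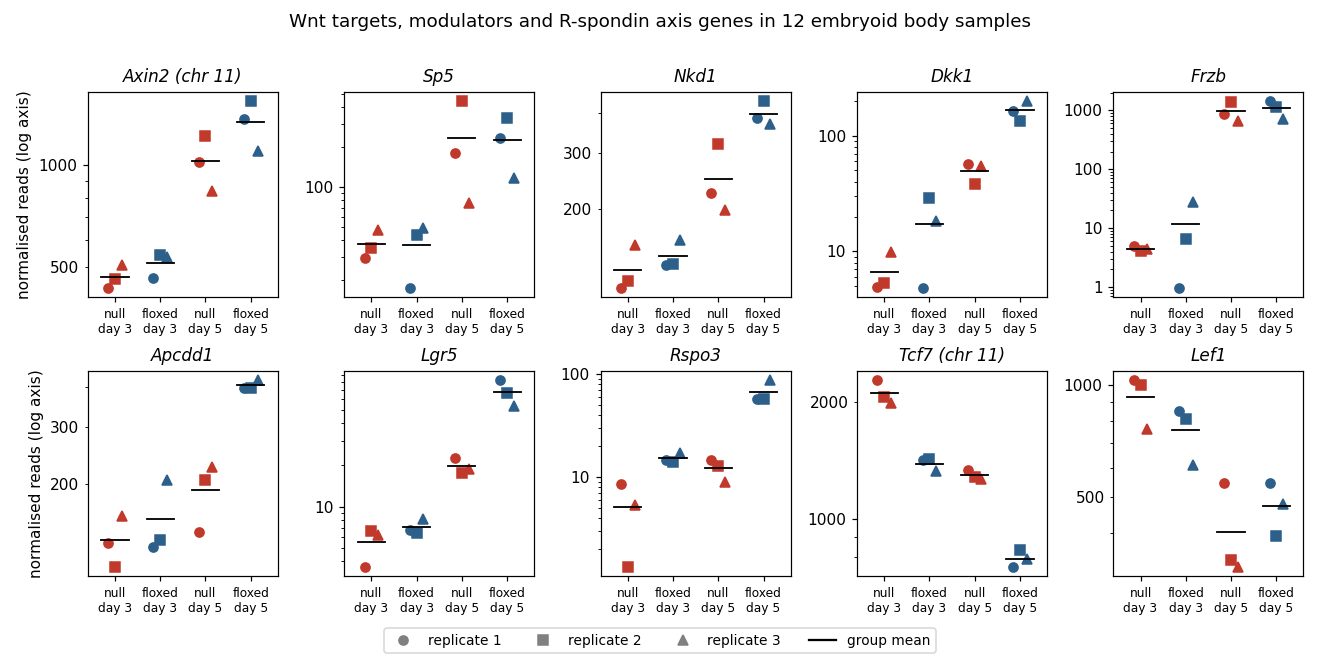
Normalised reads (log axis, a separate scale for each gene) of the 10 genes in each of the 12 samples, with null in red, floxed in blue, a marker shape for each replicate number and a line at the group mean. Rspo3, Lgr5, Dkk1, Apcdd1 and Nkd1 have all 3 null samples below all 3 floxed samples at day 5. Tcf7 has them above at both days, and Sp5 and Frzb overlap between the lines at both days. The share of all genes that separate in this way was not counted.

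**Figure D2:**
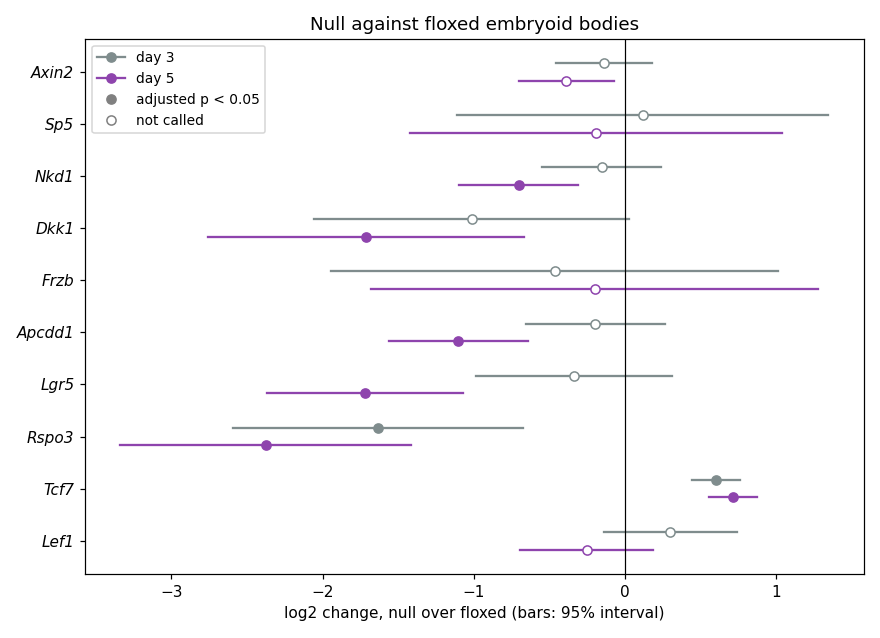
Log2 change, null over floxed, for the 10 genes at day 3 (grey) and day 5 (purple), with bars for the 95% interval from the fit. Filled points passed an adjusted p of 0.05: Tcf7 and Rspo3 at day 3, and these with Nkd1, Dkk1, Apcdd1 and Lgr5 at day 5.

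Rspo3 (ENSMUSG00000019880.9, chromosome 10, 29452416 to 29535867, minus strand of mm10) encodes a secreted R-spondin, the ligand side of the axis. At day 3 it had 8.55, 1.34 and 5.36 normalised reads in null samples, against 14.5, 13.9 and 17.2 in floxed samples. At day 5 it had 14.7, 12.8 and 8.91 in null samples, against 57.3, 57.0 and 88.2 in floxed samples. The groups did not overlap at either day, and the day 5 level of null samples lay close to the day 3 level of floxed samples. The day 3 values rest on few reads, 14 in all over the null samples and 47 over the floxed samples, with a single read in null replicate 2. The log2 change was -1.63 ± 0.44 at day 3 (SE, adjusted p = 0.0479, limma) and -2.38 ± 0.44 at day 5 (adjusted p = 0.00244). The day 3 call was lost in 10 of 16 alternatives, among them edgeR on the recovered reads (adjusted p = 0.0641) and the fit without null replicate 2 (log2 change -1.05, adjusted p = 0.108). It was also lost without null replicate 3 or without any 1 of the floxed replicates of that day (adjusted p of 0.0871 to 0.118). The day 5 call held in all 16, with a log2 change between -2.52 and -2.07.

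Lgr5 (ENSMUSG00000020140.15, chromosome 10, 115450311 to 115587780, minus strand of mm10), which encodes a receptor for R-spondins and marks several kinds of adult stem cell, had the lowest level per kilobase of exon of the 10 genes in each of the 4 groups. At day 3 it had 3.67, 6.69 and 6.26 normalised reads in null samples, against 6.78, 6.43 and 8.16 in floxed samples. The day 5 values were 22.6, 17.5 and 18.7 in null samples, against 82.7, 66.2 and 53.3 in floxed samples. The lines overlapped at day 3 and lay far apart at day 5, where the log2 change was -1.72 ± 0.30 (SE, adjusted p = 0.00164, limma). The day 3 difference of -0.34 ± 0.30 was not called (adjusted p = 0.545), and its 95% interval ran from -0.99 to 0.31.

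Dkk1 (ENSMUSG00000024868.8, chromosome 19, 30545863 to 30549665, minus strand of mm10) encodes a secreted antagonist that binds the LRP co-receptors. At day 3 it had 4.89, 5.36 and 9.84 normalised reads in null samples, against 4.84, 29.0 and 18.1 in floxed samples. By day 5 there were 56.5, 38.4 and 54.4 in null samples, against 162, 134 and 199 in floxed samples. Floxed replicate 1 at day 3 lay as low as the null samples, and at day 5 every null sample lay below every floxed sample. The day 3 difference was -1.02 ± 0.48 (SE, adjusted p = 0.235, limma) and passed in 1 of 16 alternatives, without that floxed library (-1.69, adjusted p = 0.0287). The day 5 difference of -1.71 ± 0.48 (adjusted p = 0.0202) held in 13 of 16 alternatives and was lost without floxed replicate 1 (0.0535), floxed replicate 3 (0.0655) or null replicate 2 (0.07).

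Apcdd1 (ENSMUSG00000071847.12, chromosome 18, 62922231 to 62961179, plus strand of mm10) encodes a membrane-bound Wnt inhibitor. It had 132, 111 and 159 normalised reads in null samples at day 3, against 128, 134 and 206 in floxed samples. Its day 5 values were 142, 206 and 226 in null samples, against 397, 396 and 420 in floxed samples. The day 3 groups overlapped, and at day 5 null samples averaged 191 ± 43.5 and floxed samples 404 ± 13.4 (SD, n = 3 each). The day 5 log2 change was -1.10 ± 0.21 (SE, adjusted p = 0.00292, limma), called in all 16 alternatives, and that at day 3 was -0.20 ± 0.21 (adjusted p = 0.636).

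Frzb (ENSMUSG00000027004.3, chromosome 2, 80411970 to 80447625, minus strand of mm10) encodes a secreted Frizzled-related protein that binds Wnt ligands outside the cell. It had 4.89, 4.02 and 4.47 normalised reads in null samples at day 3, against 0.968, 6.43 and 28.1 in floxed samples. By day 5 the values were 866, 1397 and 659.6 in null samples, against 1443, 1161 and 722 in floxed samples. The lines overlapped at both days, and the day 3 values of floxed samples spanned from 1 to 31 recovered reads. The difference between lines was -0.47 ± 0.68 at day 3 (SE, adjusted p = 0.745, limma) and -0.20 ± 0.68 at day 5 (adjusted p = 0.861). The 95% interval at day 5, from -1.68 to 1.28, still holds changes as large as those of Apcdd1.

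Axin2 (ENSMUSG00000000142.15, chromosome 11, 108920349 to 108950783, plus strand of mm10) encodes a scaffold of the destruction complex and is a widely used readout of the pathway. At day 3 it had 433, 459 and 504 normalised reads in null samples, against 462, 542 and 536 in floxed samples. At day 5 it had 1024, 1219 and 838 in null samples, against 1372, 1553 and 1101 in floxed samples. The groups overlapped at both days. At day 5 the ratio of each null sample to the floxed sample of the same number was 0.746, 0.785 and 0.761. The day 5 log2 change of -0.39 ± 0.15 (SE, adjusted p = 0.0668, limma) was not called in the fit without a block. It was called in 5 of 15 alternatives: with replicate number as a block (adjusted p = 0.0349), with DESeq2 on the recovered reads (0.0482), without floxed replicate 3 (0.0264), without null replicate 2 (0.0307) and with chromosome 11 centred. Centring subtracts, within each library, the median deviation of chromosome 11 genes, and Axin2 then had a log2 change of -0.72 (adjusted p = 0.0041). The day 3 difference was -0.14 ± 0.15 (adjusted p = 0.624).

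Nkd1 (ENSMUSG00000031661.11, chromosome 8, 88521354 to 88594884, plus strand of mm10) encodes an intracellular inhibitor that binds Dishevelled. It had 114, 119 and 155 normalised reads in null samples at day 3, against 134, 135 and 161 in floxed samples. Its values at day 5 were 226, 320.4 and 199.7 in null samples, against 386, 437 and 372 in floxed samples. The groups overlapped at day 3 and not at day 5. The day 5 log2 change was -0.70 ± 0.18 (SE, adjusted p = 0.0135, limma), a call lost only without null replicate 3 (-0.56, adjusted p = 0.0578) among 16 alternatives. The day 3 difference was -0.15 ± 0.18 (adjusted p = 0.671).

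Sp5 (ENSMUSG00000075304.2, chromosome 2, 70474923 to 70477729, plus strand of mm10) encodes a zinc finger factor of the Sp family and is a direct target of the pathway. It had 29.3, 34.8 and 47.4 normalised reads in null samples at day 3, against 17.4, 44.0 and 49.0 in floxed samples. At day 5 it had 181, 446 and 75.8 in null samples, against 236, 333 and 117 in floxed samples. Samples of 1 group differed from each other far more than the lines did, with means at day 5 of 234 ± 191 in null samples and 228 ± 108 in floxed samples (SD, n = 3 each). The log2 change was 0.11 ± 0.57 at day 3 (SE, adjusted p = 0.933, limma) and -0.19 ± 0.57 at day 5 (adjusted p = 0.837). At day 5 its 95% interval ran from -1.42 to 1.03, and the sign turned with edgeR and with DESeq2 (both 0.04).

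Within the lines Sp5 moved with Axin2 and Nkd1 from sample to sample. At day 5 these 3 genes were highest in replicate 2 and lowest in replicate 3 in the null line and in the floxed line. After each group's mean was removed, Pearson's r of log2 values over the 12 samples was 0.966 for Axin2 with Sp5, 0.835 for Sp5 with Nkd1 and 0.809 for Axin2 with Nkd1, the 3 highest of all pairs of the 10 genes. These are descriptions of libraries that share depth and scaling. The spread of pairwise values was wide, and Apcdd1 with Lef1 had the lowest, -0.85.

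The upstream sequences of Sp5 and Axin2 are shown because the pair followed each other most closely and because TCF and LEF factors bind sites close to CTTTGAT. They are the 250 bases before the RefSeq start in GRCm38.p6, given 5′ to 3′ on the gene's strand, with matches to CTTTGNT on either strand in capitals. That for Sp5 is chr2:70474673-70474922 and that for Axin2 chr11:108920099-108920348, both on the plus strand and ending 1 base before a start that GENCODE places at the same base.
Sp5: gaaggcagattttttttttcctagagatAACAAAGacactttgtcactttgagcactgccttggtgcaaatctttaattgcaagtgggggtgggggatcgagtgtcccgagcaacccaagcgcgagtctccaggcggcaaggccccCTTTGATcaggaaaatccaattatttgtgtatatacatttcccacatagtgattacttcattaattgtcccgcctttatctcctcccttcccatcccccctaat
Axin2: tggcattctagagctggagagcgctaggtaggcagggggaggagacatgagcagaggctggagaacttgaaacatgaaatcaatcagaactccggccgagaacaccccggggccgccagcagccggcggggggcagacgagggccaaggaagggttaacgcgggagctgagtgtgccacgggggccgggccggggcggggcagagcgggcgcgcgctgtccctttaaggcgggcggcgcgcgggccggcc

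Sp5 held CTTTGNT at 2 places in the window of 250 bases before to 50 bases after its start, beginning 222 bases before the start on the minus strand and 104 bases before it on the plus strand. The second of these also reads CTTTGAT, a motif contained in the wider one. In Axin2 these letters were not in the window. CTTTGAT was in 3.73% and CTTTGNT in 18.6% of 32851 RefSeq promoter windows of that length, searched on both strands with overlaps allowed. A match describes letters and is not evidence of binding.

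Tcf7 (ENSMUSG00000000782.15, chromosome 11, 52252371 to 52283014, minus strand of mm10), which encodes a TCF factor, is the 1 gene of the 10 that was called higher in null samples, at both days. At day 3 it had 2277, 2060.4 and 1990.3 normalised reads in null samples, against 1418, 1424 and 1326 in floxed samples. At day 5 it had 1338, 1280.4 and 1272 in null samples, against 756, 833 and 789 in floxed samples. The groups did not overlap at either day, and null samples had 1.52 times the floxed mean at day 3 and 1.64 times at day 5. The log2 change was 0.60 ± 0.07 at day 3 (SE, adjusted p = 0.00136, limma) and 0.71 ± 0.07 at day 5 (adjusted p = 9.94e-05).

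Tcf7 and Axin2 both lie on chromosome 11. The median log2 change of chromosome 11 genes was 0.36 at day 3 and 0.33 at day 5, against -0.02 elsewhere at day 3 and -0.04 at day 5. Set against that shift, Tcf7 stood 0.24 above the chromosome at day 3, where the call was lost (adjusted p = 0.168, limma), and 0.38 above it at day 5, where it was kept (adjusted p = 0.0108). Centring also changed the day 3 split of all calls, to 226 higher and 248 lower, against 696 higher and 345 lower as measured. Why chromosome 11 differs between the lines was not tested.

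**Figure D3:**
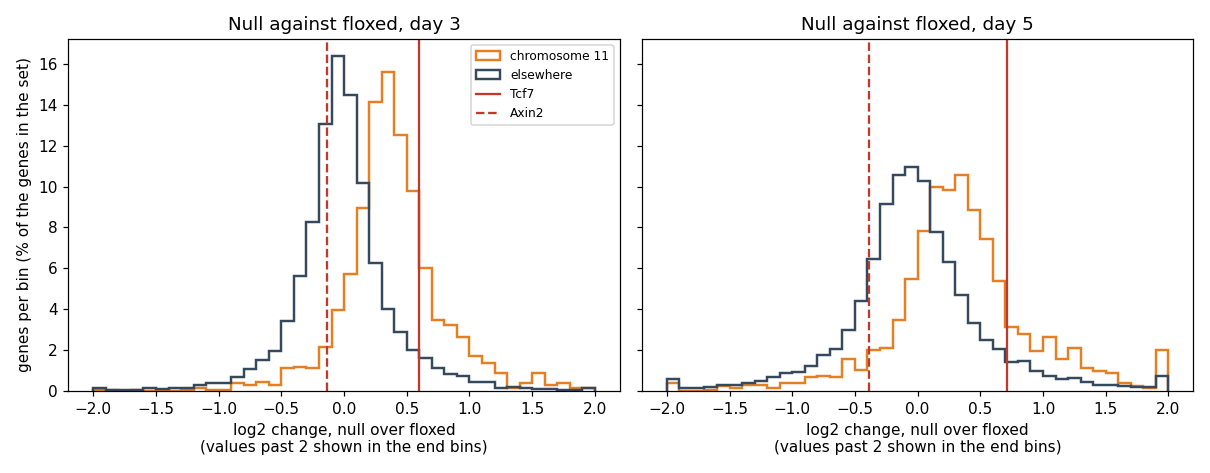
Distribution of log2 change, null over floxed, for chromosome 11 genes (orange) and all other genes (dark blue) at day 3 and day 5, as a percentage of each set per bin of 0.1. Chromosome 11 sits to the right, with medians of 0.36 and 0.33, and the vertical lines show Tcf7 (solid) above and Axin2 (dashed) below that centre at both days.

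Lef1 (ENSMUSG00000027985.14, chromosome 3, 131110471 to 131224356, plus strand of mm10) encodes the LEF factor and is itself a target of the pathway in several tissues. It had 1035, 1003 and 762 normalised reads in null samples at day 3, against 854, 813 and 612 in floxed samples. The values at day 5 were 546, 340.2 and 325 in null samples, against 545, 393 and 479 in floxed samples. The groups overlapped at both days. At day 3 each null sample lay above the floxed sample of the same number, with ratios of 1.21, 1.23 and 1.24. Neither the day 3 difference of 0.30 ± 0.20 (SE, adjusted p = 0.418, limma) nor the day 5 difference of -0.25 ± 0.20 (adjusted p = 0.388) was called, and the day 5 interval ran from -0.69 to 0.18. With the replicate block the day 3 difference was still not called (adjusted p = 0.192).

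Per kilobase of exon, Tcf7 had the highest level of the 10 genes in null samples at day 3 (803 normalised reads per kilobase), in floxed samples at day 3 (529) and in null samples at day 5 (494). In floxed samples at day 5 Frzb (343) and Tcf7 (302) headed the order, and their samples overlapped. Axin2 followed in that group at 244, and its samples overlapped neither with those of Tcf7 above it nor with those of Sp5 below it. Exon lengths came from all annotated exons of a gene, and the isoforms in use were not measured.

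Between the days most of the 10 genes changed in both lines. In the null line 7 of the 10 were called higher at day 5 than at day 3, where 22.6% of all genes tested were higher and 21.9% lower, and Tcf7 and Lef1 were called lower. In the floxed line 8 were called higher, where 22.5% of all genes were higher and 19.2% lower, and Tcf7 and Lef1 were again lower. The gene not called in the null line was Apcdd1, with 191 ± 43.5 normalised reads at day 5 and 134 ± 24.1 at day 3 (SD, n = 3 each), a log2 change of 0.50 with an adjusted p of 0.0731 in limma and of 0.023 with the replicate block. It was also called without null day 3 replicate 3 (0.0462) or null day 5 replicate 1 (0.0198). The median log2 change of the 10 genes, day 5 over day 3, was 1.22 in the null line and 1.76 in the floxed line, beside 0.0037 and 0.00018 over all genes in these lines.

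**Figure D4:**
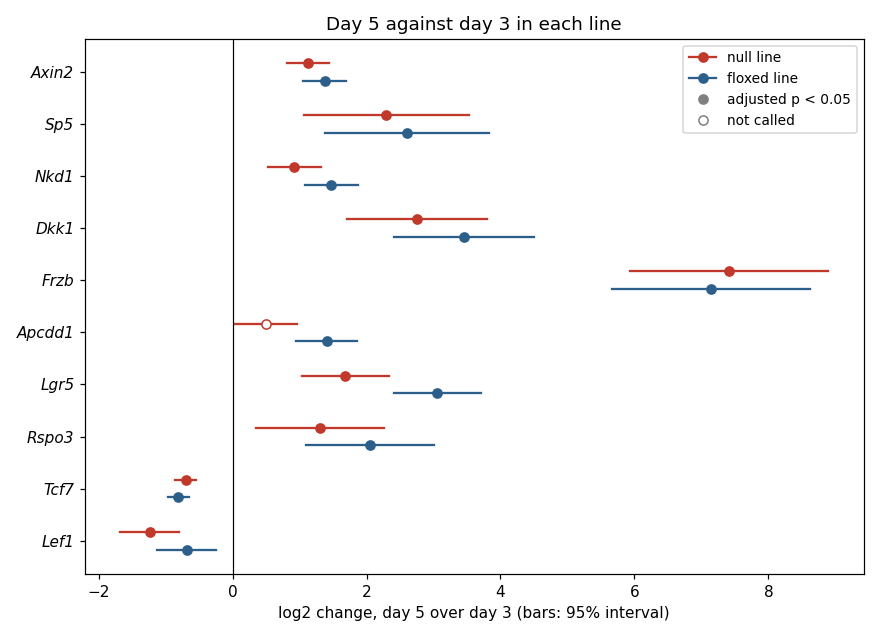
Log2 change, day 5 over day 3, for the 10 genes in the null line (red) and the floxed line (blue), with bars for the 95% interval from the fit. Filled points passed an adjusted p of 0.05: all but Apcdd1 in the null line, with Frzb farthest to the right and Tcf7 and Lef1 left of 0 in both lines.

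The largest of these day changes was that of Frzb. Day 5 means were 218 times the day 3 mean in the null line and 93.7 times in the floxed line, with log2 changes of 7.41 in the null line and 7.15 in the floxed line. The floxed day 3 mean rests mostly on replicate 3 (28.1 normalised reads), and without that library the floxed log2 change was 8.12, so the order of the lines turned with 1 library. Dkk1 had a log2 change of 2.76 in the null line and 3.45 in the floxed line, and Sp5 of 2.30 in the null line and 2.60 in the floxed line. All these changes were several times their standard errors in both lines. Axin2 had 2.21 times its day 3 mean at day 5 in the null line and 2.62 times in the floxed line, and Nkd1 had 1.93 times in the null line and 2.78 times in the floxed line. Of the R-spondin axis genes, Lgr5 had 3.54 times its day 3 mean at day 5 in the null line and 9.46 times in the floxed line. Rspo3 had 2.39 times its day 3 mean in the null line and 4.43 times in the floxed line, but its null line call (log2 change 1.31, adjusted p = 0.0291, limma) was lost in 5 of 16 alternatives. Without null day 3 replicate 2 that change was 0.73 (adjusted p = 0.118), and the call was also lost without null day 5 replicate 1 (0.0853) or null day 5 replicate 2 (0.0744). On the recovered reads, edgeR (adjusted p = 0.0526) and DESeq2 (0.0723) did not call it either.

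Of the genes that were lower at day 5, Tcf7 had 0.615 times its day 3 mean in the null line and 0.570 times in the floxed line. Lef1 had 0.433 times its day 3 mean in the null line and 0.622 times in the floxed line. Its floxed line call (log2 change -0.68, adjusted p = 0.0162, limma) was lost without floxed day 3 replicate 1 (0.0704), floxed day 3 replicate 2 (0.057) or floxed day 5 replicate 2 (0.0698).

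Whether the lines differed in how far a gene changed between the days was tested by the interaction of genotype and day. None of the 10 genes was called, against 0.247% of all genes called in the positive direction and 0.229% in the negative one. At an unadjusted p under 0.05 in limma 2 of the 10 passed, and edgeR, DESeq2 and the replicate block called 0. These 2 were Lgr5 (-1.38 ± 0.42 SE, adjusted p = 0.16) and Apcdd1 (-0.90 ± 0.30 SE, adjusted p = 0.193), both with a smaller change in the null line. The calls at day 5 alone therefore do not show that the effect of genotype differed between the days.

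The same fits were read over a list of 109 Wnt pathway genes, the 10 included, of which 99 were tested, 4 fell below the filter and 6 were not in the table. At day 3, 3 were called higher and 3 lower in null samples, with a median log2 change of -0.03, where 4.09% of all genes were higher and 2.03% lower. At day 5, 8 were called higher and 23 lower, with a median of -0.22, beside -0.02 for all genes. Of all genes, 13.0% were higher and 13.5% lower at day 5. The list thus had a smaller share of higher calls and a larger share of lower calls than all genes. It was chosen with earlier results of these data known, so its shares and those by role are descriptions and no test. Without the 10 genes, 7 of 89 were called higher and 18 lower at day 5. The counts by role that follow stand beside the same shares of all genes, and with at most 20 tested genes in a role a difference of 1 or 2 calls from them is no result about the role.

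**Figure D5:**
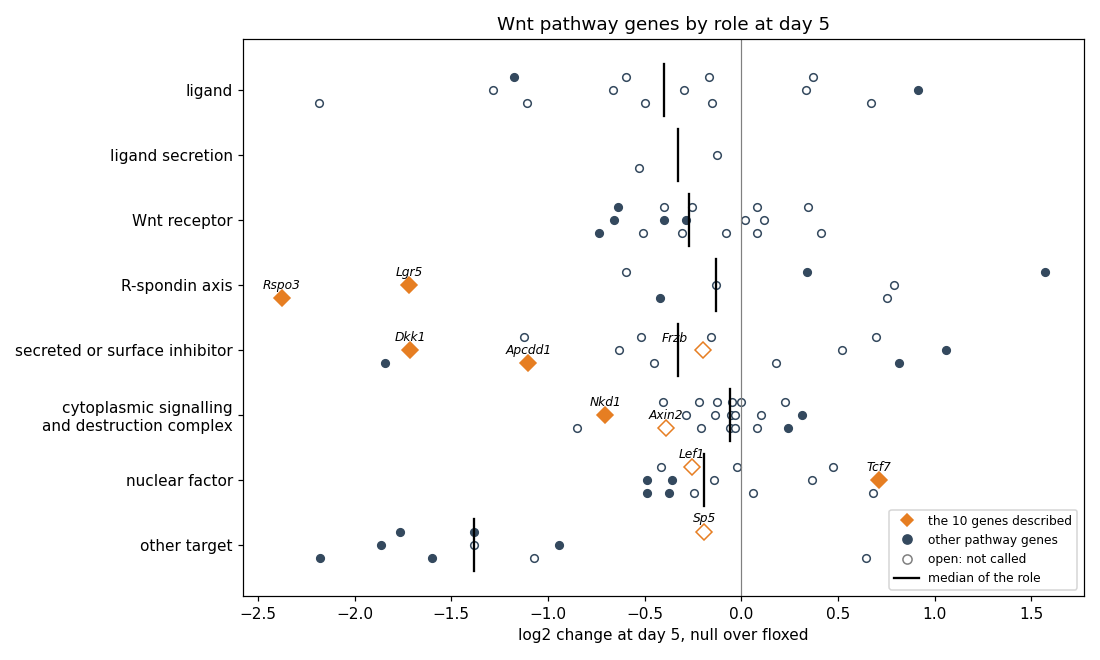
Log2 change at day 5, null over floxed, for the 99 tested Wnt pathway genes by role, with the 10 genes as orange diamonds, the others as circles, filled symbols for calls and a line at the median of each role. The role of other targets has the lowest median (-1.38), and cytoplasmic signalling genes centre near 0 (-0.06).

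At day 5 the role of other targets had 6 of 10 tested genes called lower in null samples and 0 higher. Ccnd1, a cyclin of the cell cycle, averaged 2785 normalised reads in null samples and 5402 in floxed samples, a log2 change of -0.94 ± 0.13 (SE, adjusted p = 0.000364, limma). Myc, a growth-promoting transcription factor, averaged 112 in null samples and 376 in floxed samples (-1.76 ± 0.30), and Fgf17, a secreted growth factor, averaged 41.1 in null samples and 112 in floxed samples (-1.38 ± 0.29). Sp5 belongs to this role and was not called. The other 3 lower genes, named after their values were seen, were T (-2.18), Cdx1 (-1.86) and Wnt3a (-1.60). These 3 were not followed through the alternatives, and the T values of the lines overlapped.

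In the R-spondin axis 3 of 9 genes were called lower and 2 higher at day 5, and 1 lower and 1 higher at day 3. Lgr6, a receptor for R-spondins like Lgr5, was higher in null samples at day 5, with a mean of 79.9 normalised reads against 27.0 in floxed samples (log2 change 1.57 ± 0.32 SE, adjusted p = 0.00411, limma). Lgr5 and Lgr6 thus differed between the lines in opposite directions. Znrf3, the membrane ubiquitin ligase that removes Frizzled, lies on chromosome 11 and was higher in null samples at day 3 (0.51 ± 0.11 SE). Centring the chromosome ended that call (0.15, adjusted p = 0.517), and so did leaving out null replicate 3 (0.0626) or floxed replicate 1 (0.075) of that day. Outside the rule for named genes, and named after their values were seen, Lgr4 (-0.42) was also called lower and Znrf3 (0.34) also higher at day 5, when the median of chromosome 11 was 0.33. The Lgr4 samples of the lines overlapped (adjusted p = 0.0307, limma). Neither of these day 5 calls was followed through the alternatives.

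Of 14 tested secreted or surface inhibitors, 3 were called lower and 2 higher at day 5. Sfrp2, a secreted Frizzled-related protein like Frzb, averaged 1819 normalised reads in null samples and 6662 in floxed samples at day 5 (log2 change -1.84 ± 0.20 SE, adjusted p = 0.000131, limma). It was the 1 pathway gene called in the interaction of genotype and day (-1.83 ± 0.29 SE, adjusted p = 0.0308, limma). The number of pathway genes called there was 5 with DESeq2 and 6 with the replicate block. It was 0 without replicate 1 or 2 of the floxed day 3, null day 3 or null day 5 samples and 3 without floxed day 3 replicate 3. Dkk3 (1.06), named after its value was seen, was called higher at day 5. Kremen1, a co-receptor of Dkk proteins on chromosome 11, was also higher at day 5 (0.81 ± 0.13). Wif1, an inhibitor that binds Wnt ligands, was called higher at day 3 (2.23 ± 0.58), at means of 8.77 in null samples and 1.32 in floxed samples. The Wif1 call was lost in 10 alternatives, with edgeR (adjusted p = 0.0821) and without any 1 of the 6 day 3 libraries among them (0.0529 to 0.152).

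Of 16 Wnt receptor genes, 5 were called lower at day 5 and none higher, and none was called at day 3. The 3 with the smallest p were Fzd3 (log2 change -0.66 ± 0.19 SE), Fzd9 (-0.74 ± 0.22) and Fzd10 (-0.64 ± 0.20), all Frizzled receptors, and the other 2, named after their values were seen, were Fzd1 (-0.40) and Fzd7 (-0.28). Fzd1 and Fzd7 were not followed through the alternatives. The other calls were each lost without at least 1 library, Fzd3 at day 5 without null replicate 1 (adjusted p = 0.0804, limma) or floxed replicate 3 (0.0817). Fzd9 was lost without any of the day 5 libraries but null replicate 3 (0.0573 to 0.0804), and Fzd10 without replicate 2 or 3 of either line at day 5 (0.0612 to 0.117).

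Among 14 genes of the ligand role, from which Wnt3a is left out because it is counted with the other targets, 1 was called lower and 1 higher at day 5, both on chromosome 11. Wnt3, a ligand needed for the primitive streak in the mouse, averaged 40.1 normalised reads in null samples and 85.4 in floxed samples (log2 change -1.17 ± 0.32 SE, adjusted p = 0.0171, limma). Wnt9a averaged 184 in null samples and 98.8 in floxed samples (0.91 ± 0.22), a call lost with chromosome 11 centred (0.58, adjusted p = 0.0854). Wnt3 was lost without floxed day 5 replicate 2 (0.0542), null day 5 replicate 2 (0.0523) or null day 5 replicate 3 (0.0682). Wls, which carries Wnt ligands to the cell surface, was lower at day 3 (-0.85 ± 0.19), a call lost without floxed replicate 1 or 3 or null replicate 2 or 3 of that day (0.0552 to 0.0598).

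Of 14 nuclear factors 4 were called lower at day 5 and only Tcf7 higher. Ctnnb1, which encodes beta-catenin, averaged 27145 normalised reads in null samples and 34823 in floxed samples (log2 change -0.36 ± 0.07 SE, adjusted p = 0.00323, limma). Ctnnbip1, an inhibitor of the contact between beta-catenin and TCF factors, was also lower (-0.49 ± 0.09), as were the co-repressors Tle1 (-0.38) and Tle4 (-0.49), named after their values were seen. Of 20 cytoplasmic signalling genes Nkd1 was the 1 called lower at day 5, and Csnk1g1, a casein kinase, and Dvl2, a Dishevelled protein on chromosome 11, were called higher (0.31 ± 0.09 and 0.24 ± 0.08). Dvl2 turned to -0.09 with that chromosome centred, and lost its call without null day 5 replicate 2 or 3 or any floxed day 5 replicate (0.0539 to 0.145). Csnk1g1 lost its call without floxed day 5 replicate 3 (0.0864) or null day 5 replicate 1 (0.0861). Amer1, a scaffold of the destruction complex, was the 1 gene of the role called at day 3 (-0.63 ± 0.14), lost without floxed replicate 3 (0.0542), null replicate 2 (0.0643) or null replicate 3 (0.0537) of that day.

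Markers of the cell types that embryoid bodies can hold were read beside these results, against the shares of all genes called, which were 13.5% lower and 13.0% higher at day 5 and 2.03% lower and 4.09% higher at day 3. Counts of 1 in 8 or 1 in 9 lie about at these day 5 shares. Of 8 tested primitive streak and early mesoderm markers 1 was called lower in null samples at day 5, T (log2 change -2.18), with summed levels of 134 to 169 normalised reads in null samples and 179 to 455 in floxed samples. T and Eomes made up most of these sums. For T the lines overlapped at day 5, with 13.4 to 47.8 normalised reads in null samples and 43.0 to 333 in floxed samples. Mixl1 (21.1 in null samples and 13.5 in floxed samples), Mesp2 (9.68 in null samples and 4.77 in floxed samples), Tbx6 (18.3 in null samples and 11.2 in floxed samples) and Hand1 (13.6 in null samples and 4.97 in floxed samples) had the higher mean in null samples, and none of these was called. Eomes (49.6 in null samples and 130 in floxed samples), Gsc (6.01 in null samples and 15.8 in floxed samples) and Evx1 (10.6 in null samples and 17.2 in floxed samples) had the lower mean in null samples. None of them was called either. Of 7 markers of pluripotent cells 4 were called lower at day 5 (Pou5f1, Sox2, Tdgf1 and Fgf5), with sums of 4967 to 8305 in null samples and 9030.4 to 15414 in floxed samples. Unlike Pou5f1 and Tdgf1, Sox2 had a higher floxed mean at day 5 (3369) than at day 3 (2292). Nanog, Utf1 and Zfp42 were not called, and Zfp42 had about the same mean in both lines (377 in null samples and 369 in floxed samples). Of 8 neural ectoderm markers 2 were called lower at day 5 (Zic1 and Six3), with sums of 5598 to 7691 in null samples and 8584 to 15152 in floxed samples. For these 3 lists every null sample had a lower sum at day 5 than every floxed sample. Six3 averaged 1.8 normalised reads in null samples at day 5, with 1 library at 0, and 13.1 in floxed samples. Only that floxed group reached the filter's mean of 10, so the Six3 call rests on the group that admitted the gene to the tests. Extraembryonic endoderm markers had 1 of 9 lower at day 5 (Foxa2, -1.38), with sums of 9324 to 12881 in null samples and 5288 to 13113 in floxed samples. Most of each endoderm sum was Lama1, at a mean of 8573 in null samples and 6465 in floxed samples. Gata6, Gata4, Sox17, Foxa2, Dab2, Afp and Ttr had the lower mean in null samples, and of these only Foxa2 was called. On the log2 scale of the fit the median change of the 9 markers was 0.03, so these means do not show a lower list. Sox7 had about the same mean in both lines. None of 7 feeder fibroblast markers was called at day 5, with sums of 2295 to 4032 in null samples and 2154 to 3984 in floxed samples. The sums of these last lists overlapped between the lines.

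At day 3 Fgf5 was called lower and the feeder marker Fbn1 higher, and no marker of the other 3 lists was called. Summed streak markers at day 3 lay at 236 to 266 in null samples and 211 to 240.3 in floxed samples, and summed pluripotency markers at 19352 to 32000.3 in null samples and 24601 to 36133 in floxed samples. Summed neural markers lay at 3734 to 4903 in null samples and 4221 to 5281 in floxed samples, and endoderm markers at 1135 to 1614 in null samples and 816 to 1805 in floxed samples. These 4 lists overlapped between the lines at day 3, while the feeder list did not. Feeder marker sums were 1209 to 1404 in null samples and 976 to 1127 in floxed samples. Most of each sum was Fbn1, at a mean of 1014 in null samples and 790 in floxed samples. Col1a2 (63.7 in null samples and 86.2 in floxed samples), Thy1 (91.2 in null samples and 114 in floxed samples) and Dcn (18.0 in null samples and 31.4 in floxed samples) had the lower mean in null samples and were not called. Col1a1 had the higher mean in null samples (83.9, against 43.8 in floxed samples) and was not called either. Six3 was at 0 in all 3 floxed samples at day 3, and no marker was at 0 in a whole group at day 5. The part of cell composition in the differences of the 10 genes was not tested.

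For each of the 10 genes the 2 most similar of all genes tested were found by Pearson's r of log2 values over the 12 samples, as a description. Both values of a pair come from the same libraries and share their depth and scaling. Dkk1 followed Foxa2 (r = 0.97) and Efna4 (0.968), Frzb followed Bmp2 (0.988) and Cfap43 (0.986), and Rspo3 followed Gnas (0.958) and Kdm4a (0.949). Tcf7 followed Slc16a3 (0.989) and Aldoc (0.988), both on chromosome 11. Axin2 followed Farp1 (0.986) and Snx33 (0.985), Nkd1 followed Ano1 (0.977) and Rbsn (0.976), and Sp5 followed Rsu1 (0.963) and Kif26b (0.954). Lgr5 followed Frem1 and Crb2 (both 0.98), Apcdd1 followed Rap2a (0.983) and Ccnjl (0.969), and Lef1 followed Col6a5 (0.969) and Hells (0.967).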

How the data were processed

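RNA of embryoid bodies was sequenced from stranded total RNA libraries amplified for 8 PCR cycles, per the labels' protocols, in 4 groups of 3 samples, although the series text speaks of duplicates. The deposited signal values are read counts that the authors divided by 1 size factor per sample: 100% of values were whole multiples of 1 read's worth (tolerance 0.01), which gave back the reads. Per the submitters' processing notes, DESeq 1.16.0, HTSeq 0.6.0, TopHat2 2.0.10 and CASAVA 1.8.2 are the tools and mm10 the build, and no roles are given. Symbols, positions and exon lengths came from GENCODE M21 by ID without version (18199 of 18269 IDs matched), and promoter sequences from RefSeq (GRCm38.p6).

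The test was limma-trend (limma 3.58.1, R 4.3.3), two-sided, on log2(value + 1) with 4 group means over 12 samples, 8 residual and 5 prior degrees of freedom, keeping genes whose mean reached 10 in 1 group or more. It was tested on simulated data. The simulated counts had the same dispersion for every gene and no chromosome 11 shift or replicate effect, so they say nothing about these features. P-values were adjusted by Benjamini-Hochberg over 17000 genes in each of 5 contrasts, and intervals are at 95%. Alternatives were pseudocounts of 0.5 and 5, no filter, upper-quartile and TMM scaling, edgeR 4.0.16 and DESeq2 1.42.0 on the recovered reads, a replicate block, chromosome 11 centred or left out, and each library left out in turn.

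No label says what a replicate number marks. Same-numbered null and floxed samples deviated together (r of 0.27 to 0.372 at day 3 and 0.247 to 0.424 at day 5), as did those of the null line between days (0.123 to 0.282), but not every pair of the floxed line passed 0.1 (0.0814 to 0.214). Blocked values stand beside the calls of Axin2 and Apcdd1, which the block changed. For the pathway list and for all genes, blocked results are given only as counts of calls. Which pathway genes the block added is not given, and the counts by role come from the fit without a block.

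The 10 genes and the lists were chosen with earlier results of these data known. Named were the 10 genes, Kat2a, for each role of the pathway list the called genes with the 3 smallest p in each genotype comparison, and for each of the 10 genes the 2 most similar genes without a clone-type name. Genes named beside marker counts were named after their values were seen.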

Additional observations from a re-analysis of the deposited data

How the results depend on the processing

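Over the 10 genes and 5 contrasts, 800 of 850 values under an alternative kept their direction and their side of the threshold, 23 lost a call, 9 gained one and 18 changed sign. The 2 calls among the 10 genes at day 3 became 1 with a pseudocount of 0.5, with no filter and with edgeR, and 0 with chromosome 11 centred or left out. Leaving out 1 library gave 1 to 2, with 1 left without null replicate 2 or 3 or floxed replicate 2 or 3. Tcf7 is not among the genes fitted when the chromosome is left out. The replicate block changed the calls of Axin2 at day 5 (adjusted p = 0.0349) and Apcdd1 between days in the null line (0.023) and no other call of the 10 genes.

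All changes of sign among the 10 genes were of differences that were not called. With edgeR and DESeq2, Sp5 turned to 0.042 and 0.036 at day 5 and to 0.013 and 0.017 in the interaction. The other changes of sign came from leaving out 1 library. At day 3 the values without 1 library ran from -0.33 to 0.019 for Apcdd1, from -0.34 to 0.38 for Sp5 and from -1.43 to 0.51 for Frzb. At day 5 they ran from -0.83 to 0.44 for Sp5 and from -0.50 to 0.045 for Frzb. In the interaction they ran from -0.95 to 0.32 for Sp5 and from -0.71 to 1.23 for Frzb. Dvl2 at day 5 turned to -0.090 with chromosome 11 centred.

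Over all genes, 1041 were called at day 3, against 1703 with DESeq2, 1866 with the replicate block, 474 and 388 with chromosome 11 centred and left out, and 426 to 778 without 1 library (under 1041 by more than 1.5 times without null replicate 3 or floxed replicate 1 or 2 of that day). The edgeR test on the recovered reads called 664 higher and 343 lower at day 3 and 2335 higher and 2155 lower at day 5. In the interaction 81 were called, against 511 with DESeq2, 443 with the block and 3 to 115 without 1 library, with large losses for each library but floxed day 3 replicate 3, floxed day 5 replicate 2 and null day 3 replicate 3. Upper-quartile scaling moved its split to 55 higher and 30 lower, against 42 and 39. Of the pathway list, 6 genes were called at day 3, against 10 with DESeq2, 15 with the block, 2 with chromosome 11 centred and 1 to 7 without 1 library (3 or fewer without null replicate 2 or 3 or floxed replicate 1 or 3 of that day), and 1 in the interaction, against 5, 6 and 0 to 3. The cause of these differences was not tested. Depth limits Rspo3, Lgr5, Dkk1 and Frzb at day 3, which rest on 12 to 52 recovered reads per group. It also limits the null samples at day 5 for Rspo3 (34 recovered reads) and Lgr5 (56).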
